A study of Mus musculus with 12 samples.

Results

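Exposure to interferon-γ (IFN-γ) for 6 h was compared with exposure for 1 h in a mouse B cell lymphoma line, with both exposures ended by a neutralising antibody. The comparison takes 6 of the 12 libraries of the series, 3 per exposure, chosen by their titles alone. All libraries came from Eµ-myc B cell lymphoma cells on a C57BL/6 background, in which an immunoglobulin heavy chain enhancer drives the Myc oncogene. Cells were stimulated with recombinant mouse IFN-γ at 5 ng/mL. An antibody that neutralises mouse IFN-γ, at 50 µg/mL, was added after 1 h in one group and after 6 h in the other, and cells of every exposure were harvested at 24 h. The other 6 libraries are 3 of cells exposed for 24 h and 3 of unstimulated cells. Antibody treatment of these last groups, the harvest time of the unstimulated cells and the origin of the 3 samples of a group are not stated in the labels. Each p-value is thus set against the spread among the deposited samples, and that spread may be technical. If harvest is counted from the addition of IFN-γ, the 1 h cells spent 23 h and the 6 h cells 18 h after the block, so length of exposure and time since the block cannot be told apart.

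IFN-γ is a dimeric cytokine released mainly by T and NK cells. It binds the receptor chains Ifngr1 and Ifngr2, and signalling by their Janus kinases leads to binding at GAS elements in promoters such as that of Irf1. Irf1 and related factors then bind interferon-stimulated response elements, and Nlrc5 acts on the class I promoters of the major histocompatibility complex (MHC). In B lineage cells these steps raise MHC class I presentation and a family of GTPases that act against intracellular pathogens. With the cytokine neutralised, the level of each messenger at harvest depends on what was made before the block, what was made after it, and decay.

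The 6 libraries held 53218694 to 60966363 counts, and 14299 genes passed the filter on low counts. Library 3 of the 6 h group stood apart: on the first principal component of the 6 libraries (28.07% of the variance) it lay at 38.27 and the other 5 between -9.14 and -5.63. The 7 B cell markers summed to 2469 to 2538 CPM after 1 h and 2526 to 2626 CPM after 6 h, which overlap. CPM are counts over the library total, adjusted by TMM except in the marker sums of this paragraph. In the myeloid markers (6 of 6 detected) the sums were 5.711 to 6.938 and 6.156 to 6.934 CPM. The T and NK markers Cd3e, Cd4, Cd8a and Ncr1 were at 0 in all 6 libraries, and the sums of all 6 markers of that kind were 0.9513 to 1.142 and 0.5509 to 1.203 CPM. The 5 fibroblast and endothelial markers summed to 60.25 to 64.02 and 66.65 to 71.86 CPM, nearly all of it Pecam1, which B cells can also express. Whether other cells had a part in the results below was not tested. In bulk RNA, fewer cells of a type and less RNA per cell cannot be told apart.

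At harvest, messenger of 5 MHC class I genes and 5 GTPase list genes was higher after 6 h than after 1 h exposure. These differences were small beside the full 24 h response. Of 14299 genes, 14 (0.0979%) differed at a Benjamini-Hochberg adjusted p under 0.05 in edgeR's quasi-likelihood test, which is what called means below. There were 12 called higher after 6 h (0.0839%) and 2 called lower (0.014%). Without library 3 of the 6 h group 24 genes were called, 20 higher and 4 lower, and 13 of the 14 were among them, with Gbp3 lost. At an unadjusted p under 0.05, 434 genes (3.04%) were higher and 272 (1.9%) lower. The 12 higher genes included 5 of MHC class I presentation and 5 of the GTPase list, among them Gm1966, annotated as a pseudogene. The others were the class II pathway gene Ifi30 and the collagen gene Col27a1. The 2 lower genes were the glycolytic gene Aldoa and the linker histone gene Hist1h1c.

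**Figure D1:**
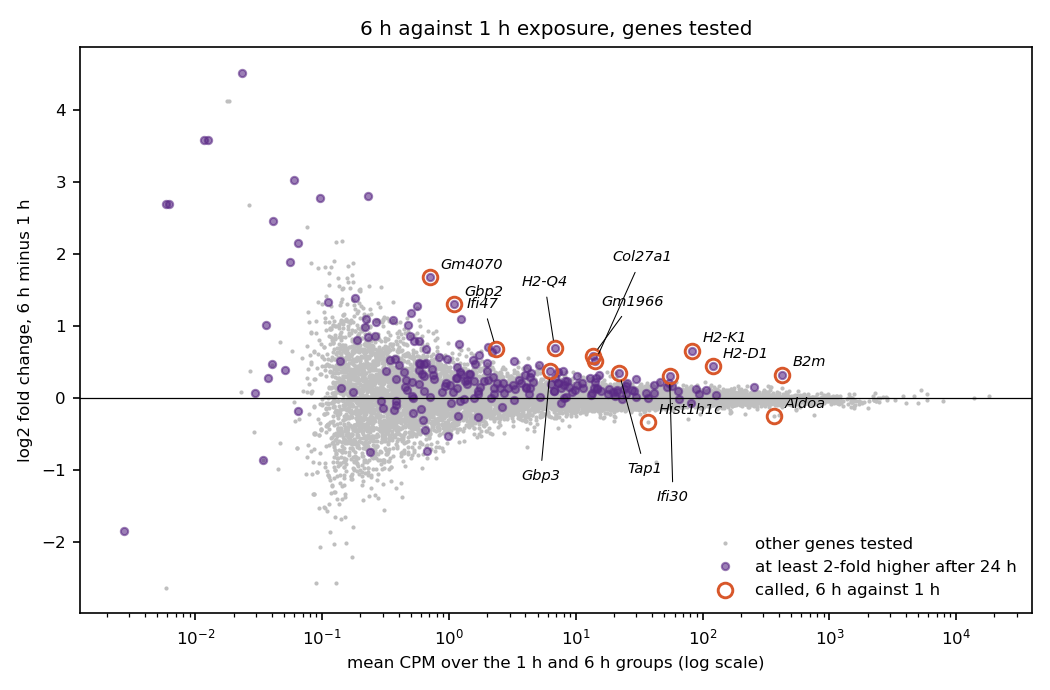
Log2 fold change of 6 h minus 1 h exposure (vertical axis) against the mean level in CPM over both groups (horizontal log axis). Each of the 14299 genes tested has 1 point, except genes at 0 in both groups, which are not drawn. Rings mark the 14 called genes. Purple points mark those drawn of the 220 genes at least 2-fold higher after 24 h, most of which lie above 0 at all levels.

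Promoters of the called protein-coding genes of the class I and GTPase lists and of the called lower genes are printed here. Most of the class I and GTPase genes among them carry binding motifs of the IRF family close to the start. Each sequence is the 160 bases before the first listed start of the gene in RefSeq's table (GRCm38.p6, the assembly also called mm10), 5′ to 3′ on the gene's strand. Letters in capitals match the core of the interferon-stimulated response element, which is GAAA and again GAAA with 2 free bases between them, the shorter class I element GAANNGAAA, or the GAS element TTCNNNGAA, on either strand. Each motif was searched on its own, and matches may overlap. The class I promoters lie at chr17:34000348-34000507, minus strand (H2-K1), chr17:35262934-35263093, plus strand (H2-D1), chr17:35379457-35379616, plus strand (H2-Q4), chr2:122147527-122147686, plus strand (B2m) and chr17:34187396-34187555, plus strand (Tap1).
H2-K1: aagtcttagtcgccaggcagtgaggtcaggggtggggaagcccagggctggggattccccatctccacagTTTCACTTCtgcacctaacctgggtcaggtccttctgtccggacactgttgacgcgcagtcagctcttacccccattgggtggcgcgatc
H2-D1: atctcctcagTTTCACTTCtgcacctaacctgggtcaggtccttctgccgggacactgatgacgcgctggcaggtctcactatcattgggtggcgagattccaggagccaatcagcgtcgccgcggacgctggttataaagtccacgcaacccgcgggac
H2-Q4: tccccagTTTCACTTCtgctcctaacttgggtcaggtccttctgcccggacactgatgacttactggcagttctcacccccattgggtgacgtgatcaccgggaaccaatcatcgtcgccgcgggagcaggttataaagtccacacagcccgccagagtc
B2m: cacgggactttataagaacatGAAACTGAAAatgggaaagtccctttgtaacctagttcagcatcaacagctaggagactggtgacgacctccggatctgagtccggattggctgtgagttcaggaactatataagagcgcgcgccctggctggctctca
Tap1: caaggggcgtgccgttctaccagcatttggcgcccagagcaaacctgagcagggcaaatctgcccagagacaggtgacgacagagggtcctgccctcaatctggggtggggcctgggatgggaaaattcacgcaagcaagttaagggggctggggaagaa

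The heavy chain genes H2-K1, H2-D1 and H2-Q4 share the same 9 bases, TTTCACTTC on the printed strand, at -90 to -82, -150 to -142 and -153 to -145 from their listed starts. B2m has GAAACTGAAA at -139 to -130, and the window of Tap1 has no match to these 3 motifs. The GTPase promoters lie at chr3:142620503-142620662, plus strand (Gbp2), chr3:142559884-142560043, plus strand (Gbp3) and chr11:49076427-49076586, plus strand (Ifi47), and those of the lower genes at chr7:126800448-126800607, minus strand (Aldoa) and chr13:23738647-23738806, plus strand (Hist1h1c, listed as H1f2 in RefSeq).
Gbp2: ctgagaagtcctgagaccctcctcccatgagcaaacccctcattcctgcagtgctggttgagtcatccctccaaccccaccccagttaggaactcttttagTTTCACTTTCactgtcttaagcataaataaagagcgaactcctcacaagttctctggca
Gbp3: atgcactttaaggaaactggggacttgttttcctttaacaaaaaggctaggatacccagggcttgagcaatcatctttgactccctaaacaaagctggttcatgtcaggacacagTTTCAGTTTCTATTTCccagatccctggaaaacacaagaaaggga
Ifi47: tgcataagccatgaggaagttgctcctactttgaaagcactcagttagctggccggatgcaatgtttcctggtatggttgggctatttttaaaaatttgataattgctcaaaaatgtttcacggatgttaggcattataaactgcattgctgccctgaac
Aldoa: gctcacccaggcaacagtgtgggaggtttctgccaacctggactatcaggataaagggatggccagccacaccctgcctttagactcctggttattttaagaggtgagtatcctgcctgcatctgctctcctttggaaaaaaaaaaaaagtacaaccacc
Hist1h1c: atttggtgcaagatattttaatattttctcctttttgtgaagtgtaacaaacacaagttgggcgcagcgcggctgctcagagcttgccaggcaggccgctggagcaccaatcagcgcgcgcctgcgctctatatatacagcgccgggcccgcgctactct

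Gbp2 has TTTCACTTTC at -59 to -50 and Gbp3 has a pair of overlapping matches from -45 to -30. The windows of Ifi47, Aldoa and Hist1h1c hold no match to the 3 motifs. In the 250 bases before the start, the interferon-stimulated core was found in 3.0% of 32851 RefSeq promoters, the class I element in 6.3% and GAS in 7.0%. RefSeq's table held 13 of the 14 called genes, with Gm4070 missing. Ifi30 and Col27a1, also called higher, are not printed, and the 250 bases before their listed starts hold no match to the 3 motifs. Gm1966, annotated as a pseudogene, is not printed. The window before its listed start, chr7:106644646-106644895, matches the interferon-stimulated core at -163 to -154. The counted gene model lies on the minus strand at 106596743 to 106604035, away from that window. The match may therefore not belong to the promoter of the gene that was called. A match describes letters and is not a measured binding site.

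MHC class I molecules carry peptides from inside the cell to CD8 T cells, and their heavy chain genes showed the clearest difference between the exposures. H2-K1 (ENSMUSG00000061232.15, chromosome 17, 33996017 to 34000347), a classical heavy chain, stood at 66.6, 63.5 and 61.6 CPM after 1 h and at 100.6, 98.6 and 103.8 CPM after 6 h. The groups lay well apart, and both were above unstimulated cells (45.1 ± 2.71 CPM, SD, n = 3). The log2 fold change was 0.66 ± 0.05 (SE; edgeR adjusted p = 9.07e-10), a level 1.58-fold higher. H2-D1 (ENSMUSG00000073411.11, chromosome 17, 35262730 to 35267499), the other classical heavy chain, stood at 102.8, 102.8 and 99.01 CPM after 1 h and 140.2, 135.4 and 139.4 CPM after 6 h. Every 6 h library was above every 1 h library, with a log2 fold change of 0.45 ± 0.05 (edgeR adjusted p = 2.45e-05). H2-Q4 (ENSMUSG00000035929.11, chromosome 17, 35379617 to 35385290), a non-classical heavy chain, stood at 5.20, 5.52 and 4.88 CPM after 1 h and 8.498, 8.43 and 8.31 CPM after 6 h. Its groups did not overlap either, and the log2 fold change was 0.69 ± 0.09 (edgeR adjusted p = 0.00014).

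The light chain and the peptide transporter were higher as well. B2m (ENSMUSG00000060802.8, chromosome 2, 122147686 to 122153083), the light chain shared by all class I molecules, stood at 395.1, 368.0 and 365.2 CPM after 1 h and 457.9, 442.0 and 514.6 CPM after 6 h. The 6 h libraries were all higher but more spread, and the log2 fold change was 0.33 ± 0.06 (edgeR adjusted p = 0.012). Leaving out single libraries ended this call in 2 of 6 fits, those without library 2 or 3 of the 1 h group, with an adjusted p of up to 0.151. Tap1 (ENSMUSG00000037321.17, chromosome 17, 34187553 to 34197225), a subunit of the transporter that moves peptides into the endoplasmic reticulum, stood at 17.8, 20.4 and 19.5 CPM after 1 h and 23.3, 25.3 and 25.2 CPM after 6 h. Its groups did not overlap, the log2 fold change was 0.36 ± 0.06 (edgeR adjusted p = 0.00282), and the adjusted p was 0.0547 without library 1 of the 1 h group and 0.0778 in an edgeR fit to the 6 libraries alone.

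Over the list of MHC class I presentation, 26 of 30 genes were tested, and 5 were called higher and 0 lower. This and the other lists were chosen with earlier results of these data known, so their shares are descriptions. In 16 of the 26 (61.5%) every 6 h library was above every 1 h library, against 735 of 14299 genes (5.14%), and in 0 every 6 h library was below, against 738 genes (5.16%). The median log2 fold change of the list was 0.17, beside 0.00 over all genes tested, and without library 3 of the 6 h group 5 members were still called higher. H2-Q6 and H2-Q7, close relatives of H2-Q4, stood at log2 differences of 1.102 ± 0.25 and 1.09 ± 0.40 but missed the threshold (edgeR adjusted p = 0.0989 and 0.774). H2-Q6 stood at 0.826, 0.5005 and 1.03 CPM after 1 h and 1.79, 1.43 and 1.85 CPM after 6 h. Heavy chain genes are near-identical in places and the counting may have divided or dropped their reads, which makes the value of any 1 H2-Q gene uncertain.

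Several other genes of the class I pathway that were higher after 24 h were not called between 6 h and 1 h, 1 of them, Psmb9, with a difference close to that of B2m. Psmb9, an immunoproteasome subunit, had a log2 fold change of 0.32 ± 0.08 with groups that did not overlap and was not called (edgeR adjusted p = 0.126). Psmb8 and Psmb10, the other catalytic subunits, were at 0.15 ± 0.06 and 0.11 ± 0.08. Tap2, the partner of Tap1, was at 0.08 ± 0.07, and Tapbp, which encodes the loading factor tapasin, at 0.07 ± 0.06, both with overlapping groups. Nlrc5, the transactivator of class I genes, stood at 38.6, 37.5 and 40.7 CPM after 1 h and 44.9, 44.0 and 44.1 CPM after 6 h. All 3 of its 6 h libraries were higher, but the log2 fold change of 0.19 ± 0.05 was not called (edgeR adjusted p = 0.207). H2-T23, the gene of the Qa-1 heavy chain, was at 0.24 ± 0.09 and not called.

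**Figure D2:**
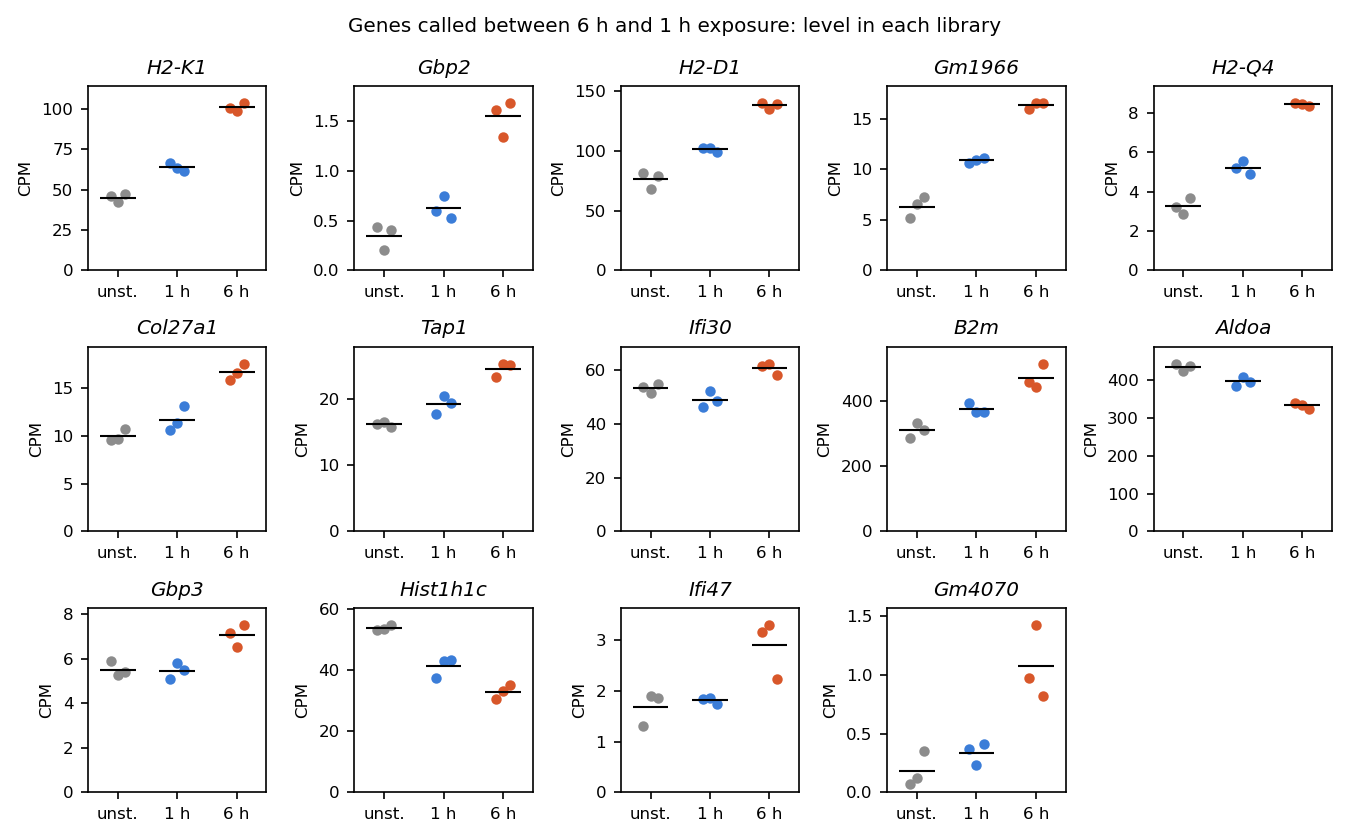
Level of each called gene in CPM (vertical axes, from 0, a scale for each gene) in the 3 unstimulated, 1 h and 6 h libraries, with points for libraries and lines for group means. In all 14 genes the 1 h and 6 h points do not overlap; Aldoa and Hist1h1c are lower after 6 h and the other 12 higher.

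Also called higher were 5 genes of the GTPase list, a family known for proteins that coat or disrupt the vacuoles of intracellular pathogens. Of these calls Gbp2, Gbp3, Ifi47 and Gm4070 ended both with limma-voom and in an edgeR fit to the 6 libraries alone, with adjusted p-values for Gbp2 of 0.0611 and 0.0616, and Gm1966 was called in both. Gbp2 (ENSMUSG00000028270.12, chromosome 3, 142620602 to 142638008), a guanylate-binding protein, stood at 0.598, 0.751 and 0.522 CPM after 1 h and at 1.61, 1.34 and 1.68 CPM after 6 h. These values rest on 111 and 259 counts over the groups, which did not overlap, and the log2 fold change was 1.30 ± 0.15 (edgeR adjusted p = 2.45e-05). After 24 h Gbp2 stood at 962.1 ± 11.2 CPM (SD, n = 3). Gbp3 (ENSMUSG00000028268.14, chromosome 3, 142560026 to 142573209), of the same family, stood at 5.08, 5.79 and 5.49 CPM after 1 h and 7.17, 6.52 and 7.52 CPM after 6 h. Its 1 h libraries were at the unstimulated level (5.52 ± 0.316 CPM) and its 6 h libraries all above them. The log2 fold change was 0.37 ± 0.07 (edgeR adjusted p = 0.036), and the call was kept only without library 2 of the 6 h group, with an adjusted p of up to 0.3 in the other 5 fits that leave out a library.

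Ifi47 (ENSMUSG00000078920.3, chromosome 11, 49076587 to 49096974), an immunity-related GTPase, stood at 1.85, 1.85 and 1.75 CPM after 1 h and 3.16, 3.30 and 2.23 CPM after 6 h. Library 3 of the 6 h group was the lowest of its group, still above all 1 h libraries. The log2 fold change was 0.68 ± 0.14 (edgeR adjusted p = 0.0438), and the adjusted p was 0.000421 without that library and up to 0.294 without any of the other 5, none of which kept the call. Gm1966 (ENSMUSG00000073902.5, chromosome 7, 106596743 to 106604035) and Gm4070 (ENSMUSG00000078606.8, chromosome 7, 105895139 to 105953967) are gene models related to the very large inducible GTPases. The annotation lists Gm1966 as an unprocessed pseudogene. As for the H2-Q genes, the counting may have divided or dropped reads shared with related models, which makes the values of both uncertain. Gm1966 stood at 10.6, 10.9 and 11.1 CPM after 1 h and 15.9, 16.6 and 16.5 CPM after 6 h, 2 tight groups with a log2 fold change of 0.59 ± 0.07 (edgeR adjusted p = 2.91e-05). Gm4070 stood at 0.369, 0.234 and 0.408 CPM after 1 h and 0.976, 1.43 and 0.824 CPM after 6 h. The groups did not overlap and the log2 fold change was 1.68 ± 0.30 (edgeR adjusted p = 0.0438), a call that was kept only without library 3 of the 6 h group (0.00973) and reached an adjusted p of 0.264 without library 2 of the 1 h group.

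Of 24 genes in the GTPase list 22 were tested, and 5 were called higher and 0 lower. In 9 of the 22 (40.9%) the 6 h libraries were all above the 1 h libraries and in 0 all below, beside 5.14% and 5.16% of all genes tested, of which 0.0839% were called higher. The list's median log2 fold change was 0.63, and 0.75 over the 16 members above 6 counts in at least 1 of the groups, which were all above 0. The other 6 members were at or under 6 counts over both groups, among them Tgtp1, at 0 in all 6 libraries. Iigp1, an immunity-related GTPase, had 10 counts over the 1 h libraries and 68 over the 6 h libraries. Its log2 fold change of 2.80 ± 0.56 was not called (edgeR adjusted p = 0.105), though it was without library 3 of the 6 h group (0.0034). Gvin1, the very large inducible GTPase, was just outside the threshold at 0.52 ± 0.11 (edgeR adjusted p = 0.054). Irgm1 and Igtp, regulatory members of the immunity-related family, stood at 8.27 ± 0.705 and 2.20 ± 0.115 CPM after 1 h and at 8.34 ± 0.624 and 2.29 ± 0.54 CPM after 6 h (SD, n = 3). Neither differed beyond that spread.

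Ifi30 and Col27a1 were the other 2 genes called higher. Ifi30 (ENSMUSG00000031838.8, chromosome 8, 70762774 to 70766663), a lysosomal thiol reductase that prepares antigens for class II loading, stood at 46.3, 52.4 and 48.4 CPM after 1 h and 61.4, 62.4 and 58.2 CPM after 6 h. Unstimulated cells lay between these groups, at 53.3 ± 1.75 CPM (SD, n = 3). The log2 fold change was 0.31 ± 0.05 (edgeR adjusted p = 0.00578). The call ended without library 1 or 3 of the 1 h group or library 2 of the 6 h group, with an adjusted p of up to 0.0912. Col27a1 (ENSMUSG00000045672.15, chromosome 4, 63214004 to 63334991), a fibrillar collagen chain, stood at 10.7, 11.3 and 13.2 CPM after 1 h and 15.9, 16.7 and 17.6 CPM after 6 h. Its groups did not overlap and the log2 fold change was 0.51 ± 0.08 (edgeR adjusted p = 0.00282, and 0.0589 without library 1 of the 1 h group).

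MHC class II genes, which present peptides to CD4 T cells, had a median log2 fold change of 0.06 over 19 tested members, and Ifi30 was the 1 member called. In 6 of the 19 (31.6%) the 6 h libraries were all higher, beside 5.14% of all genes. H2-Aa, a class II chain, stood at 37.0 ± 2.97 CPM after 1 h and 36.9 ± 3.73 CPM after 6 h, with overlapping groups, and the invariant chain gene Cd74 at 102.5 ± 2.33 and 110.8 ± 5.16 CPM. H2-Ob, a chain of the inhibitor of class II loading, was at 0.18 ± 0.05 and Ciita, the class II transactivator, at 0.18 ± 0.09. None of these 4 was called.

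None of the tested genes of the IFN-γ pathway itself was called, in a test that called 0.0979% of all genes. Of 23 in the list of receptor, signalling and feedback genes 22 were tested, at a median log2 fold change of 0.05. Of these, 17 were above 0. In 2 (9.09%) the 6 h libraries were all higher and in 0 all lower, beside 5.14% and 5.16% of all genes. Without library 3 of the 6 h group these were 6 (27.3%) and 0, beside 13.9% and 13%. Irf1, the transcription factor that acts early in the response, stood at 10.3, 10.3 and 10.8 CPM after 1 h and 11.4, 12.3 and 12.5 CPM after 6 h. Its 3 libraries of the 6 h group were all higher than those of the 1 h group, which were at the unstimulated level, and the log2 fold change of 0.21 ± 0.06 was not called (edgeR adjusted p = 0.388). Irf9, a DNA-binding factor of the interferon response, was at 0.38 ± 0.10 with overlapping groups (edgeR adjusted p = 0.213). Socs1, the feedback inhibitor, stood at 0.708 ± 0.18 and 0.712 ± 0.082 CPM, and the receptor genes Ifngr1 and Ifngr2 were at 0.06 ± 0.06 and 0.07 ± 0.07. Irf1 reached 221.1 CPM after 24 h, and its 6 h mean of 12.1 CPM stood at 0.721% of that rise above unstimulated cells.

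Antiviral genes known from type I interferon had 44 of 59 members tested and 0 called, with a median of 0.10. In 14 of the 44 (31.8%) the 6 h libraries were all higher and in 0 all lower, beside 5.14% and 5.16% of all genes. Sp140, a nuclear body protein, and Slfn8, a Schlafen family member, came closest at 0.22 ± 0.05 and 0.37 ± 0.09 (edgeR adjusted p = 0.142 and 0.193). Parp14, an ADP-ribosyltransferase, was at 0.13 ± 0.06. Of all genes tested 0.0979% were called, and of 12 tested checkpoint, costimulation and adhesion genes 0 were. Among them Cd274, which encodes the T cell inhibitory ligand PD-L1, stood at 6.31, 6.41 and 5.78 CPM after 1 h and 7.50, 7.33 and 7.54 CPM after 6 h. Every 6 h library was higher, at 0.27 ± 0.10 (edgeR adjusted p = 0.844).

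**Figure D3:**
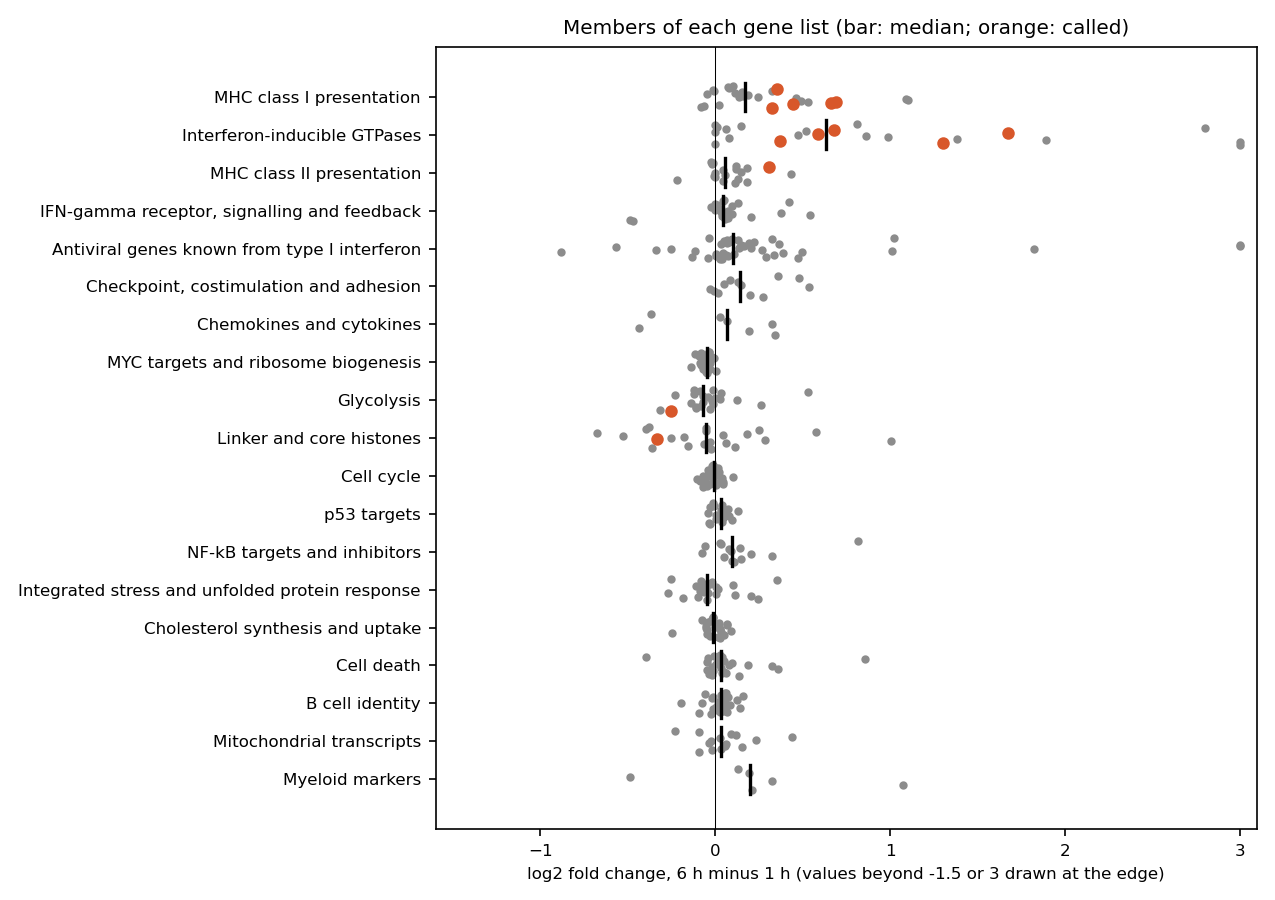
Log2 fold change of 6 h minus 1 h (horizontal axis) for each tested member of the gene lists named at the left, with bars at the list medians and called genes in orange. The medians of MHC class I presentation (0.17) and of the GTPases (0.63) lie to the right of 0, and those of glycolysis (-0.07) and of MYC targets and ribosome biogenesis (-0.05) slightly to the left.

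Most genes that respond to the full exposure had a log2 fold change above 0 between the shorter ones, and few of them were called. A set of 220 genes (1.54% of those tested) was at least 2-fold higher after 24 h than in unstimulated cells, called, and at 1 CPM or more after 24 h, a contrast between the other 6 libraries, although the filter and the spread were estimated over all 12. Over all genes tested, 10.3% were called higher and 8.35% lower after 24 h. All 12 genes called higher between 6 h and 1 h belong to it, and 0 of its members were called lower. In 74 of the 220 (33.6%) the 6 h libraries were all above the 1 h libraries and in 3 (1.36%) all below, namely BE692007, Cd1d1 and Snx10, named after their values were seen. Of the other 14079 genes 661 (4.69%) and 735 (5.22%) were so placed. Without library 3 of the 6 h group, 94 of the 220 (42.7%) were higher and 8 (3.64%) lower, beside 13.9% and 13% of all genes. The log2 fold change was above 0 in 189 of the 220 (85.9%) and in 7152 of all genes tested (50%).

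Over these 220 genes the median log2 fold change was 0.21, with quartiles of 0.08 and 0.46, and it was 0.21 again over the 210 genes that were above 6 counts in a group. Each library's median over the 220 genes, as a log2 difference from the unstimulated mean, was 0.08, 0.04 and 0.10 after 1 h and 0.29, 0.31 and 0.28 after 6 h. The 2 groups lay apart, and library 3 of the 6 h group was not apart from its group here. After 24 h the medians were 1.83, 1.73 and 1.83. The other genes tested stayed between -0.0112 and 0.0041 in all 12 libraries. Against unstimulated cells, 10 of the 220 genes were called higher after 1 h (0.273% of all genes were) and 39 after 6 h (1.17% of all genes), with 0 called lower in either (0.147% and 0.427% of all genes). These 2 comparisons share the unstimulated libraries with each other and with the contrast that chose the 220 genes. Low values in those libraries would help a gene enter the set and would also raise these counts and medians. The difference between the 6 h and 1 h libraries does not use them.

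**Figure D4:**
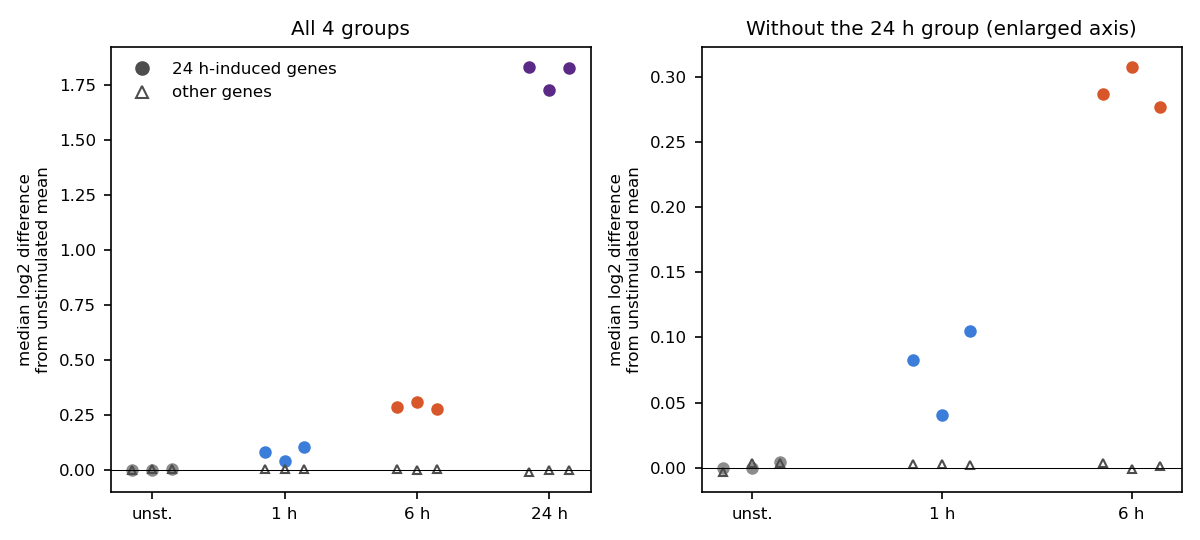
Median log2 difference from the unstimulated mean over the 220 genes at least 2-fold higher after 24 h (filled points) and over the other genes tested (open triangles), 1 point for each library, with all 4 groups at the left and an enlarged axis without the 24 h group at the right. The 6 h libraries lie at 0.28 to 0.31 and the 1 h libraries at 0.04 to 0.10. The 220 genes were chosen against the same unstimulated libraries, which may raise the distances of the filled points from 0.

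Genes with a larger response to the full exposure had a larger median difference between 6 h and 1 h. The median log2 fold change was 0.16 over the 122 genes that were 2- to 4-fold higher after 24 h, 0.25 over the 52 that were 4- to 16-fold higher and 0.63 over the 46 that were at least 16-fold higher. In these 3 sets 107 (87.7%), 43 (82.7%) and 39 (84.8%) genes were above 0, beside 50% of all genes tested. The 6 h libraries were all above the 1 h libraries in 32%, 36.5% and 34.8% of the sets, beside 5.14% of all genes. Neither share rose steadily with the 24 h response. Of the 46, 10 were at or under 6 counts over both groups, and the median of the other 36 was 0.63. The median also differed by starting level. It was 0.37 over the 99 genes under 1 CPM in unstimulated cells and 0.16 over the 121 at 1 CPM or more. Size of the 24 h response and starting level were not separated. The Spearman correlation across genes between the 24 h response and the difference of 6 h and 1 h was 0.30 over the 220 genes and 0.112 over all 14299, and the 2 contrasts are between different libraries within 1 fit. Genes are not independent replicates, and these are descriptions with no test. Over the 27 genes at least 2-fold lower after 24 h, 0 were called between 6 h and 1 h, the median was -0.09, and in 4 (14.8%) the 6 h libraries were all below, beside 5.16% of all genes.

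**Figure D5:**
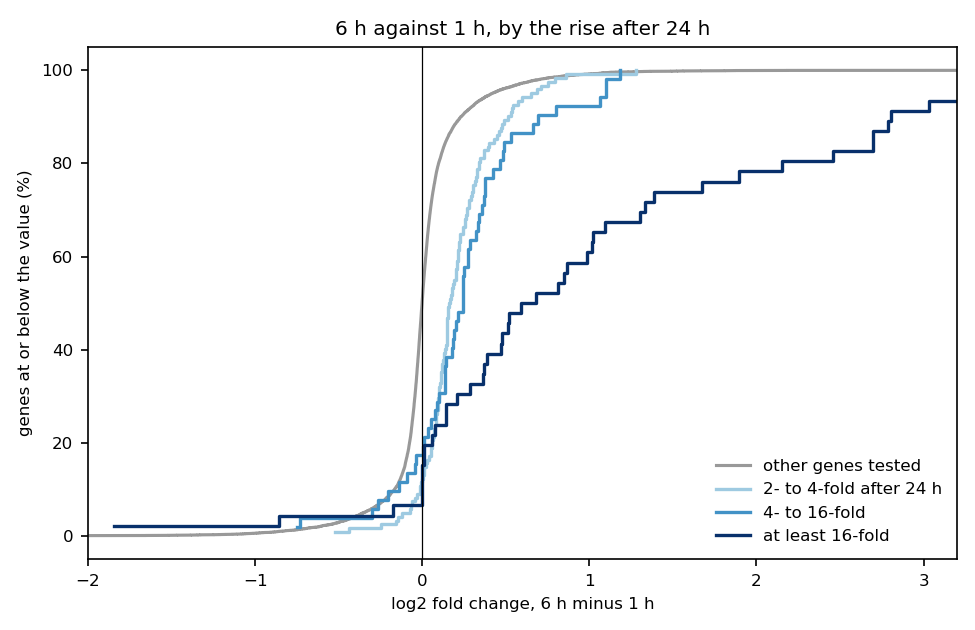
Share of genes at or below a given log2 fold change of 6 h minus 1 h (vertical axis in percent, horizontal axis log2), for the genes 2- to 4-fold, 4- to 16-fold and at least 16-fold higher after 24 h and for the other genes tested. The medians rise with the 24 h response, at 0.16, 0.25 and 0.63 for the 3 sets and 0.00 for the other genes. The lower quartiles of the 3 sets do not rise in order, at 0.08, 0.07 and 0.14.

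As a share of the full response, the amount present at harvest differed between the called genes. With the unstimulated mean as 0% and the 24 h mean as 100%, H2-K1 stood at 8.45% after 1 h and 25.2% after 6 h, the 3 libraries of the 6 h group running from 24.1% to 26.4%. H2-D1 went from 11.3% to 27.8%, H2-Q4 from 9.12% to 24.1% and B2m from 8.63% to 21.2%. Col27a1 was at 8.1% and 31.7%, with its 6 h libraries from 27.9% to 35.7%. Those 5 genes therefore lay at 21.2% to 31.7% after 6 h, while Tap1 was at 7.01% and Psmb9 at 6.75%. Lower still were the called genes of the GTPase list, with 2.19% for Gm1966, 1.03% for Gm4070, 1.02% for Ifi47, 0.969% for Gbp3 and 0.125% for Gbp2. The ranges over libraries of the heavy chain genes and of these GTPase list genes did not overlap. Over all induced members of the class I list (21 genes) the median share after 6 h was 7.40%, and 9 of them were at 20% or more. Over those of the GTPase list (20 genes) it was 0.102%, and 0 reached 20%. Across the 220 genes the median was 0.873% after 1 h and 6.24% after 6 h, and 47 genes were at 20% or more.

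IRF motifs were counted in the promoters of the genes that respond to 24 h. RefSeq's table held promoters of 152 of the 220 genes, and a gene counted when any of its listed starts had a match. Either IRF motif was present in the 250 bases before the start in 49 of the 152 (32.2%) and in 838 of the 9627 genes tested that had a promoter (8.7%). The longer core alone was found in 22.4% and 3.2%, and the GAS element in 16.4% and 6.8%. The median log2 fold change between 6 h and 1 h was 0.26 over the 49 genes with an IRF match and 0.21 over the 103 without. Of these, 43 and 92 were above 0, beside 50% of all genes tested. The 6 h libraries were all above the 1 h libraries in 22 of the 49 and in 32 of the 103. Over all genes tested this share was 5.14%. Among the called genes with a promoter in the table, Tap1, Ifi47, Ifi30, Col27a1, Aldoa and Hist1h1c have no match to either IRF motif.

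Aldoa and Hist1h1c were lower after 6 h. Aldoa (ENSMUSG00000030695.16, chromosome 7, 126795234 to 126800751), which encodes the glycolytic enzyme aldolase A, stood at 386.5, 407.9 and 396.9 CPM after 1 h and 340.9, 335.6 and 325.1 CPM after 6 h. The groups were apart and both lay below unstimulated cells (435.8 ± 9.51 CPM, SD, n = 3). Its log2 fold change was -0.25 ± 0.05 (edgeR adjusted p = 0.0127), and the call ended without library 2 or 3 of the 1 h group or library 2 of the 6 h group, with an adjusted p of up to 0.197. After 24 h Aldoa stood at 355.5 ± 27.6 CPM, so its 6 h mean of 333.9 CPM was not above the full exposure. Hist1h1c (ENSMUSG00000036181.2, chromosome 13, 23738808 to 23740367), a linker histone gene, stood at 37.5, 43.1 and 43.4 CPM after 1 h and 30.5, 33.1 and 35.1 CPM after 6 h. Unstimulated cells held 53.8 ± 0.907 CPM and 24 h cells 37.0 ± 3.09 CPM. The log2 fold change was -0.33 ± 0.07 (edgeR adjusted p = 0.0376), a call lost without library 2 or 3 of the 1 h group and without library 1 or 2 of the 6 h group, with an adjusted p of up to 0.302.

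Aldoa was the 1 member of the glycolysis list called. In 9 of 23 tested members (39.1%) every 6 h library was below every 1 h library, beside 5.16% of all genes, and in 1 (4.35%) every 6 h library was above. The 9 were Aldoa, Gpi1, Tpi1, Gapdh, Pgk1, Pgam1, Eno1, Pkm and Ldha, named after their values were seen. Pgk1, phosphoglycerate kinase, stood at 450.1, 434.7 and 404.5 CPM after 1 h and 353.2, 366.1 and 378.3 CPM after 6 h. Its groups did not overlap, but the log2 fold change of -0.23 ± 0.06 was not called (edgeR adjusted p = 0.213). Ldha and Gapdh were at -0.14 ± 0.04 and -0.11 ± 0.04 (edgeR adjusted p = 0.467 and 0.857). The list's median was -0.07, and 5 of its 23 members were above 0. Histone genes other than Hist1h1c were not called, and 4 of 23 with it (17.4%) were lower without overlap, or 8 (34.8%) without library 3 of the 6 h group, where 13% of all genes were.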

How the data were processed

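Polyadenylated RNA of 12 samples was sequenced from both ends. The authors deposited whole-number read counts for each gene in 1 table, made with STAR 2.5.2a, featureCounts 1.4.3-p1 and Picard on mm10, per the submitters' processing notes. For the annotation release and the strand setting the sources used here give nothing, so genes with an antisense partner are uncertain. In every library 69.9% to 73.9% of low counts were even, as when both mates add 1 count. The floor was therefore 6 counts over a group (3 read pairs), which covers counting error only. Of 53379 identifiers 53274 had a symbol. Coordinates are 1-based on GRCm38 (GENCODE M21).

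The counts were filtered with filterByExpr, scaled by TMM and fitted over all 12 libraries in 4 groups with edgeR 4.0.16 (R 4.3.3; robust quasi-likelihood F test, 8 residual degrees of freedom; common coefficient of variation 0.0579). P-values were adjusted over 14299 genes. Standard errors were taken as the absolute fold change over the root of F. Replicate pairs of the 6 libraries differed by more than sampling noise (chi-square per degree of freedom 2.525 to 8.475). Named were every called gene, the 10 next by p, 32 fixed genes and 2 per list by p; results of some of these are not reported here. The members and lists were chosen with earlier results of these data known. Alternatives used DESeq2 1.42.0, limma 3.58.1, other scaling, filters and sets of libraries, and the fit was tested on simulated data.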

Additional observations from a re-analysis of the deposited data

How the results depend on the processing

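The number of genes called between 6 h and 1 h, 14, was 34 with DESeq2, 9 with limma-voom, 36 with a filter of at least 1 count in any library (with 23480 genes tested), 9 with only the 6 libraries compared and 8 at an adjusted p under 0.01. Leaving out each library in turn gave 8 to 24 calls, the highest without library 3 of the 6 h group. H2-K1, Gbp2, H2-D1, Gm1966 and H2-Q4 were called in all 6 of those fits. Calls of Gbp2, Gbp3, Ifi47, Gm4070 and Hist1h1c ended with limma-voom, and these and Tap1 with only the 6 libraries compared. RLE size factors gave 14. Halved counts gave 13, with 12 of the 14 kept and Gbp3 and Ifi47 lost (edgeR adjusted p = 0.117 and 0.104). No call changed direction. Replicate numbers did not pair the samples: same-numbered 1 h and 6 h libraries correlated at -0.146, -0.102 and 0.003, and not every library correlated best with its own number. With a replicate block 16 genes were called, 13 of them shared.

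The median over the 220 genes, 0.21, was 0.33 for those at least 4-fold higher after 24 h and 0.16 for those at 1 CPM or more in unstimulated cells. Chosen after seeing the data, the removal of library 3 of the 6 h group left 1981 genes higher and 1859 lower without overlap, from 735 and 738, with 1 sample fewer to separate, and 8 of the 220 lower, from 3.

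Sign changes were limited to values near 0 that were not called. Without single libraries Socs1 ran from -0.19 to 0.13, Irgm1 from -0.034 to 0.084, Igtp from -0.12 to 0.21, H2-Aa from -0.080 to 0.060 and Xaf1 from -0.39 to 0.23. H2-Aa was at 0.0019 with DESeq2, 0.0020 with RLE size factors and 0.0017 with the 6 libraries only. Genes under about 1 CPM rest on few counts, as 10 against 68 for Iigp1.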

Other observations

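Beyond the lists above, several genes of growth and stress were placed low after 6 h without passing the test. In the list of MYC targets and ribosome biogenesis 31 of 32 members had a log2 fold change below 0, with a median of -0.05 and 0 called. In 9 (28.1%) every 6 h library was below every 1 h library, and in 0 above, beside 5.16% and 5.14% of all genes. Without library 3 of the 6 h group these were 18 (56.2%) and 0, beside 13% and 13.9%. Srm, spermidine synthase, stood at 270.3, 282.7 and 281.8 CPM after 1 h and 254.2, 255.4 and 260.6 CPM after 6 h. Its groups did not overlap, and the log2 fold change of -0.12 ± 0.04 was not called (edgeR adjusted p = 0.7). Myc itself stood at 1730 ± 72.8 CPM after 1 h and 1688 ± 19.9 CPM after 6 h (SD, n = 3), with overlapping groups. Atf4, the transcription factor of the integrated stress response, stood at 180.3, 178.4 and 174.5 CPM after 1 h and 156.1, 154.3 and 158.2 CPM after 6 h. That difference of -0.19 ± 0.05 was not called (edgeR adjusted p = 0.193), and of 23 stress response genes tested 6 (26.1%) were lower and 3 (13%) higher without overlap.

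The NF-κB list ran the other way, with 5 of 14 members (35.7%) higher without overlap and 0 lower, beside 5.14% and 5.16% of all genes, and a median of 0.09. Nfkb2, which encodes the precursor of p52, stood at 9.14, 9.31 and 9.62 CPM after 1 h and 11.7, 12.8 and 10.7 CPM after 6 h. Every 6 h library was higher, and the log2 fold change of 0.33 ± 0.09 was not called (edgeR adjusted p = 0.361). Bmf, a pro-apoptotic BH3-only protein, was at 0.36 ± 0.08, just outside the threshold (edgeR adjusted p = 0.0829, and 0.017 without library 3 of the 6 h group). Cell cycle genes (30 tested, median -0.01), p53 targets (17, 0.03), cell death genes (25, 0.03), cholesterol genes (23, -0.01) and B cell identity genes (29, 0.03) had 0 calls in either direction. Of all genes tested 0.0979% were called. With library 3 of the 6 h group left out, 12 B cell identity genes (41.4%) and 6 p53 targets (35.3%) were higher without overlap. In both lists 0 were lower, beside 13.9% and 13% of all genes. Cell cycle, cell death and cholesterol genes were then higher in 10%, 12% and 0%. In that fit 1 B cell identity gene and 1 cell death gene were called higher, among 20 genes in all.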
